A study of Mus musculus and Homo sapiens with 4 samples.

Results

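Distal 17q was taken as all entries of chromosome 17 that start at or above 47 Mb in the coordinates of the files, and holds 424 of 25932 entries (1.64%). The first of them is CA10, which starts at 47062673, and the last is METRNL, which ends at 78646011, in the coordinates of hg18, the only human build that the submitters' processing notes list. The stretch was selected on measured values, the RPKM ratios of the 2 libraries compared here, so those ratios describe it and no test was made on them. The limit falls in a gene-poor stretch: below it the nearest expressed entries were NME1, MBTD1 and UTP18, with centred log2 ratios of 0.07, -0.68 and 0.41, and above it TOM1L1, COX11 and STXBP4, with 1.32, 0.20 and -0.38.

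By the labels, RNA was taken from VCaP, a line of prostate cancer cells, at passages 5 to 6. It was compared with RNA labelled VCaP ERα, at passages 4 to 5. These cells are described as VCaP made to overexpress oestrogen receptor alpha. That both libraries come from the same line rests on the labels, and markers given below went against the first label. Total RNA was depleted of ribosomal RNA, the labels describe it as poly-A-, and the strand was kept. Each condition gave 1 library, so no value has a replicate error. The sources used here do not say whether the VCaP ERα cells are 1 clone or which promoter drives the receptor. Both libraries are bulk RNA, in which fewer cells of a type and less RNA per cell cannot be told apart.

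ESR1, the gene of the introduced receptor, had 15.7 RPKM in the VCaP-labelled library and 209 RPKM in VCaP ERα. Markers of the prostate luminal lineage went against the first label. Over 12 such genes the median was 0.127 RPKM (0 to 8.18, sum 20.3) in the VCaP-labelled library and 117 RPKM (3.16 to 694, sum 2221) in VCaP ERα. KLK4 and FOLH1 were listed at 0 in the former, and 7 of the 12 were under 1 RPKM there. A list of 12 luminal breast genes had medians of 21.1 RPKM (0 to 1625, sum 3759) and 2.65 RPKM (0.0297 to 727, sum 774), with SCGB2A2 at 0 in the VCaP-labelled library. Of these 12, 6 had a centred log2 ratio, defined below, under -1 and 2 above 1, where 19.2% and 26.8% of all expressed entries do. Under 1 RPKM were 3 of the 12 in the VCaP-labelled library and 6 in VCaP ERα. AGR2 alone, with 114 and 727 RPKM, made up most of the second sum. All 6 stromal and all 5 leukocyte markers were at or below 1.18 RPKM in both libraries. These differences run beside every result below, and their part in them was not tested.

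The long arm of chromosome 17 carries, towards its end, a dense series of unrelated housekeeping, signalling and epithelial genes together with clusters of tissue-restricted families. Band 17q23 within it is known as a region gained in a share of breast cancers, with BCAS3, PPM1D, RPS6KB1, TBX2 and TRIM37 among its genes. BCAS3 was named for that amplification, PPM1D encodes a phosphatase that dampens the p53 response, and RPS6KB1 encodes the S6 kinase downstream of mTOR.

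The stretch was mostly lower in VCaP ERα than in the VCaP-labelled library. Values are RPKM, that is reads divided by entry length and by the total of mapped reads, and the ratio is log2((VCaP ERα + 1)/(VCaP + 1)) less -0.59, its median over the 9754 entries of the genome at 1 RPKM or more in both libraries. A centred ratio below 0 therefore means lower in VCaP ERα than for the typical expressed entry. Of the 424 entries 304 reached 1 RPKM in at least 1 library and are called expressed, 223 of them in both. Among the 304, 110 had a centred log2 ratio below -1 (36.2%, against 19.2% of all 13954 expressed entries) and 58 had one above 1 (19.1%, against 26.8% of all). Without the centring these counts were 158 and 35, where 34.3% and 17% of all expressed entries passed the same limits. The median over the 304 entries was -0.51, with quartiles of -1.47 and 0.60, against 0.09 over all expressed entries and 0.12 over the 589 expressed entries of chromosome 17 below the limit. A low median was not particular to the stretch: chromosome 16 as a whole had -0.83 over 594 expressed entries, with 43.9% below -1 and 6.90% above 1. Of the 304 entries of the stretch 46 lay below -2 (6.22% of all expressed entries do), 20 below -3 (2.34% of all) and 11 above 2 (8.87% of all). This tail was not particular to the stretch either: of the 594 entries of chromosome 16, 87, 31 and 15 passed the same limits. For entries at 1 RPKM or more in both libraries the median of the stretch was -0.71.

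**Figure D1:**
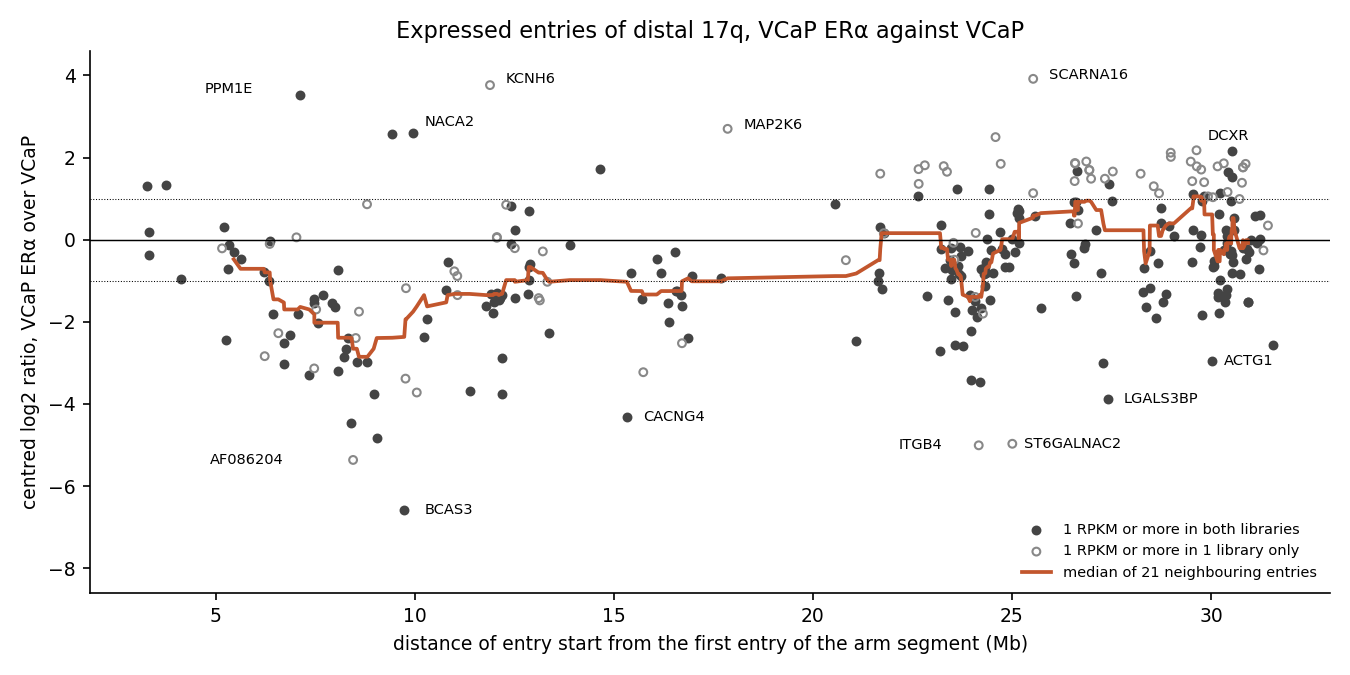
Centred log2 ratio of VCaP ERα over VCaP (vertical axis) for the 304 expressed entries against the distance of their start from the first entry (horizontal axis, Mb). Filled points reached 1 RPKM in both libraries and open points in 1 only, dotted lines mark 1 and -1, and the line is the median of 21 neighbouring entries, which reaches -2.85 and lies in part above 0 towards the telomere.

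Against all expressed entries the stretch stood high in the VCaP-labelled library and near the middle in VCaP ERα. The 304 expressed entries had a median of 10.3 RPKM in the former, where all expressed entries had 5.59 RPKM. In VCaP ERα the corresponding medians were 2.82 and 3.04 RPKM. Within each library the entries were also ranked against all 25932 entries, which needs no scaling between libraries. The median percentile of the stretch was 81.7 in the VCaP-labelled library and 72.0 in VCaP ERα, against 73.1 in both for all expressed entries. At least 10 RPKM was reached by 154 of the 304 entries in the VCaP-labelled library (50.7%, against 34.8% of all expressed entries) and by 59 in VCaP ERα (19.4%, against 21.6%). The 424 entries held 4.39% of the summed RPKM of the first library and 1.93% of that of the second. The entry with the highest value was ACTG1, which encodes the cytoplasmic gamma-actin and had 2609 and 221 RPKM; without it the shares were 3.45% and 1.82%.

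**Figure D2:**
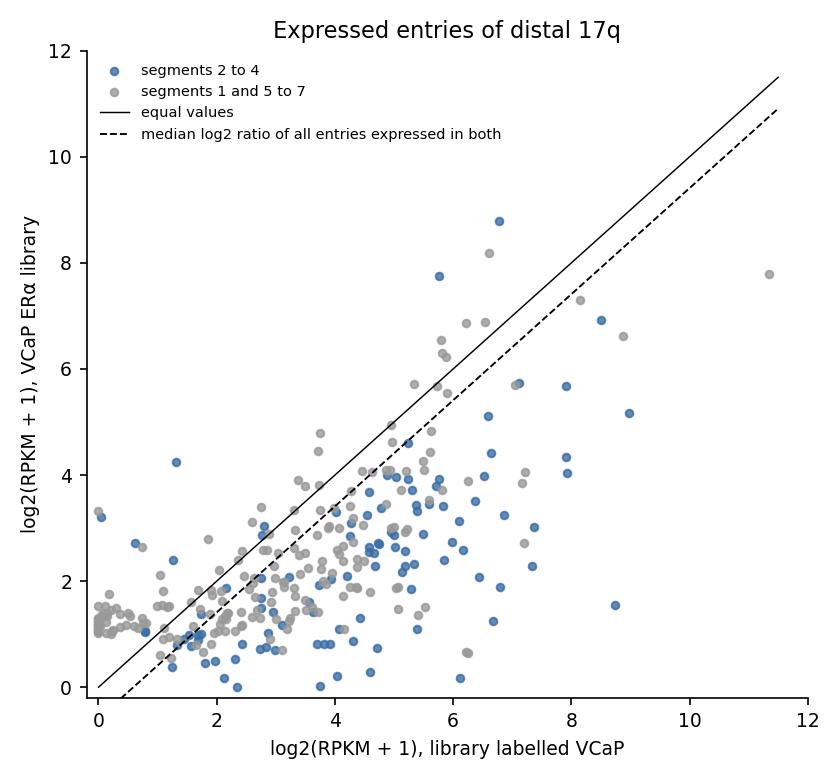
Level of each of the 304 expressed entries in VCaP ERα (vertical axis, log2(RPKM + 1)) against the VCaP-labelled library (horizontal axis, same scale). Blue points are entries of the 3 segments from 52 to 67 Mb and grey points the others; most blue points lie below the dashed line, which marks the median log2 ratio of -0.59.

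Along the arm the ratio was lowest in 3 adjoining segments and nearer 0 towards both ends. Segments of 5 Mb were counted from 47 Mb. Over all expressed entries 19.2% lay below -1 and 26.8% above 1. In segment 1 only 5 of 11 entries were expressed, with a median centred log2 ratio of 0.20. Segment 2 (52 to 57 Mb) had the lowest median, -1.82 over 47 entries, of which 33 were below -1 and 2 above 1. In segment 3 (57 to 62 Mb) it was -1.22, with 22 of 41 entries below -1 and 3 above 1, and in segment 4 (62 to 67 Mb) -1.29, with 11 of 18 below -1 and 1 above. Segment 5 (67 to 72 Mb) had -0.66, with 22 of 69 entries below -1 and 11 above 1.

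Closer to the telomere the picture was mixed. Segment 6 (72 to 77 Mb) had a median of 0.65, with 12 of 71 entries below -1 (16.9%) and 27 above 1 (38.0%). Over its 46 entries at 1 RPKM or more in both libraries the median was -0.03. Segment 7, from 77 Mb to the end, had -0.21, with 10 of 53 below -1 (18.9%) and 12 above 1 (22.6%). Over all expressed entries the shares are 19.2% and 26.8%, near those of segment 7. Without the centring the medians of segments 1 and 6 were -0.39 and 0.06.

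**Figure D3:**
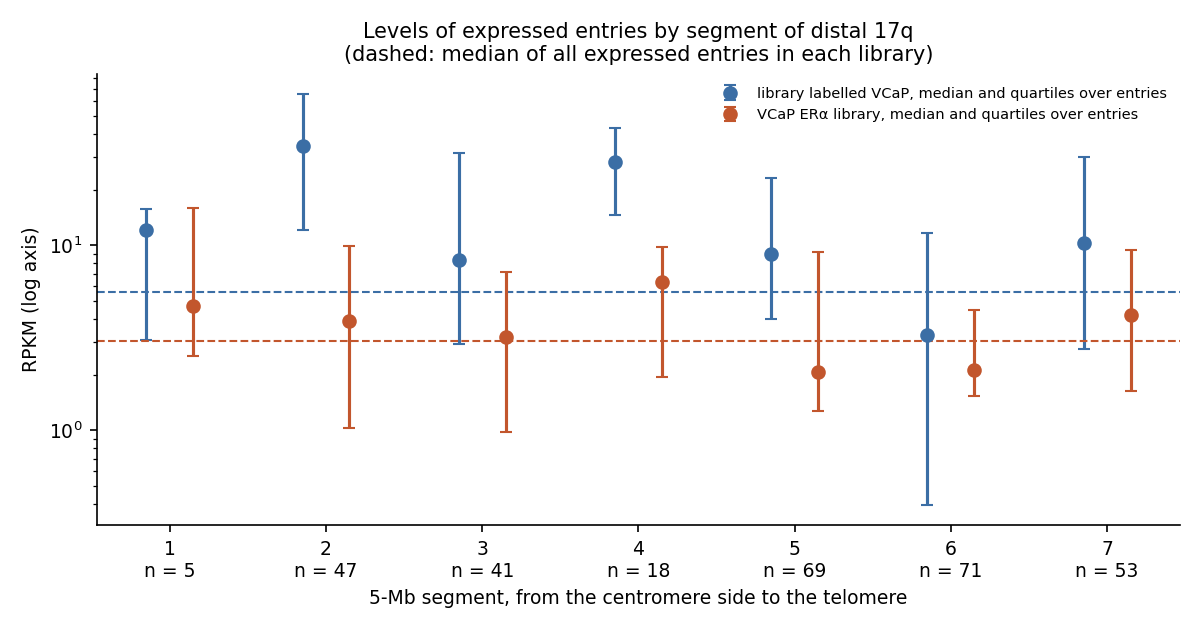
Median level (points) with lower and upper quartile over the expressed entries (bars) in each library for the 7 segments of 5 Mb, on a log axis in RPKM; bars are spread between entries, not between replicates. In segment 2 the VCaP-labelled library stands at 34.3 RPKM against a dashed line at 5.59 RPKM, while VCaP ERα stands at 3.87 RPKM against 3.04 RPKM.

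In segment 2 the median level was 34.3 RPKM in the VCaP-labelled library and 3.87 RPKM in VCaP ERα. The median percentiles of its entries within their libraries were 94.3 and 76.8. Segment 4 showed the same order, with 28.3 and 6.35 RPKM. In segment 6 both libraries were low, with 3.28 and 2.11 RPKM.

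Medians of 21 neighbouring expressed entries were used to follow the profile. On distal 17q 284 such windows fit, out of 13476 over all chromosomes. The lowest, shared by 3 overlapping windows, was -2.85; the first of these runs from CLTC, which starts at 55051832, to BRIP1, which starts at 57114767. It was also the lowest of all windows taken, and 15 windows of distal 17q lay below the lowest one found elsewhere, -2.06 on chromosome 16 between CYBA and SPATA2L. Below -2 there were 22 windows here and 5 elsewhere, and below -1 there were 93 here and 513 elsewhere. Neighbouring windows share most of their entries, and a count of windows is therefore not a count of regions. Elsewhere, the lowest window reached -1.97 on chromosome 1 and -1.90 on chromosome 20. The highest window of distal 17q, 1.05, runs from KIAA1618 to BAHCC1 (75849262 to 76988135, by entry starts), and 94 of the 284 windows were above 0. Levels in that highest window were low, with medians of 2.69 RPKM in the VCaP-labelled library and 1.90 RPKM in VCaP ERα. Of its 21 entries 12 reached 1 RPKM in both libraries, and their median ratio was 0.11.

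**Figure D4:**
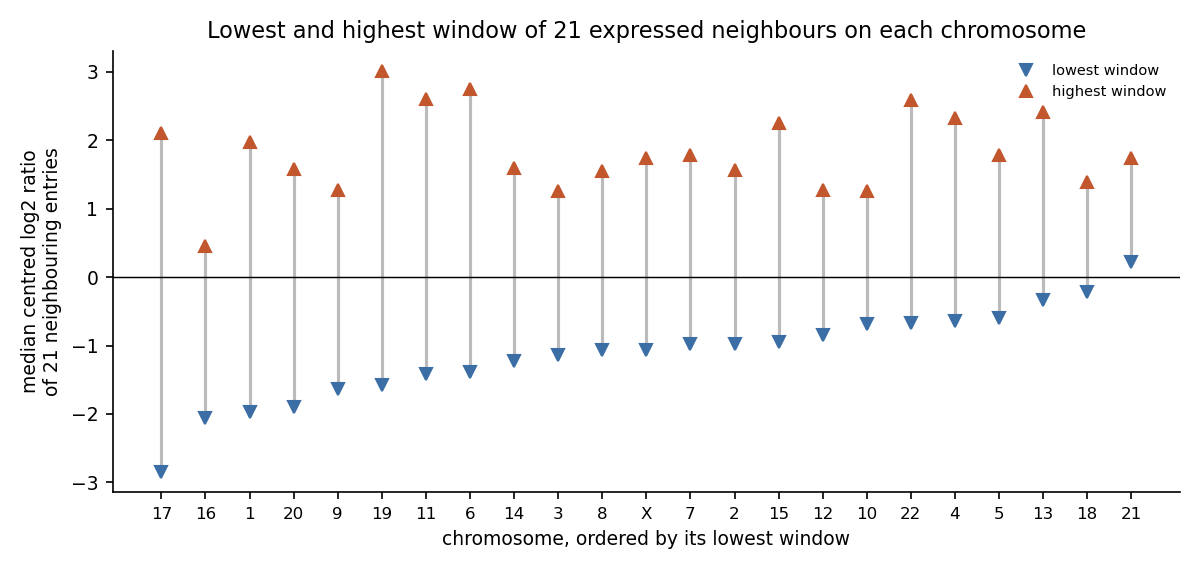
Lowest (blue) and highest (orange) median centred log2 ratio among windows of 21 neighbouring expressed entries on each chromosome (horizontal axis, ordered by the lowest window). Chromosome 17 has the lowest value, -2.85, and chromosome 16 the next, -2.06; chromosomes Y and M have too few expressed entries for a window.

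Runs were taken as 8 or more consecutive expressed entries on the same side of 0. Distal 17q held 8 runs lower in VCaP ERα with 103 entries (33.9% of its expressed entries, against 9.21% in lower runs over all chromosomes) and 0 runs higher (12.7% over all chromosomes). Entries on the other side of 0, among them KCNH6, PRKCA, MAP2K6 and SUMO2, stood at their ends. The longest, from TRIM37 to SCARNA20, held 19 entries over 1.41 Mb (54414782 to 55824368). Its median of -2.39 was the lowest of the 108 lower runs on all chromosomes, of which 10 held 19 or more entries. Lower runs were not particular to the stretch: the longest, with 43, 32 and 25 entries, were all on chromosome 16. A larger share of entries below 0 by itself makes lower runs longer, and this share was 64.5% here against 47.2% of all expressed entries. Adjacent expressed entries were on the same side of 0 in 64.7% of pairs here and 61.0% over all chromosomes. The other 7 runs of distal 17q went from TRIM25 to MTMR4 (15 entries, median -1.0), BRIP1 to CYB561 (10 entries, -1.49), DDX5 to AXIN2 (9 entries, -0.98), CACNG4 to ABCA5 (17 entries, -1.34), C17orf28 to HN1 (9 entries, -0.74), NUP85 to BC027861 (13 entries, -1.34) and SAP30BP to FBF1 (11 entries, -1.13). The lowest value of these runs in the VCaP-labelled library was 1.33 RPKM. An expressed entry under 1 RPKM there has a centred ratio above 0 by definition, so that level is fixed by the filter. In VCaP ERα each of the 8 runs held entries under 1 RPKM, 5 of 19 in the run from TRIM37 to SCARNA20.

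A list of genes of the 17q23 region had 24 genes with an entry, and the 22 expressed ones were all lower in VCaP ERα under every scaling tried. Of the 22, 20 had a centred log2 ratio below -1 and 0 above 1, with a median of -2.53. Over all expressed entries 19.2% were below -1, 26.8% above 1 and 47.2% below 0. The list was drawn up with the earlier result on this region known and is no independent evidence of its direction. Their levels were between 6.94 and 500 RPKM in the VCaP-labelled library, a median of 42.8 RPKM, and between 0.217 and 50.1 RPKM in VCaP ERα, a median of 3.68 RPKM. As plain ratios the first library exceeded the second 2.57-fold to 219-fold, with a median of 13.1-fold. For the 18 genes at 1 RPKM or more in both libraries the median was 11.8-fold, and over all such entries of the genome it was 1.64-fold.

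**Figure D5:**
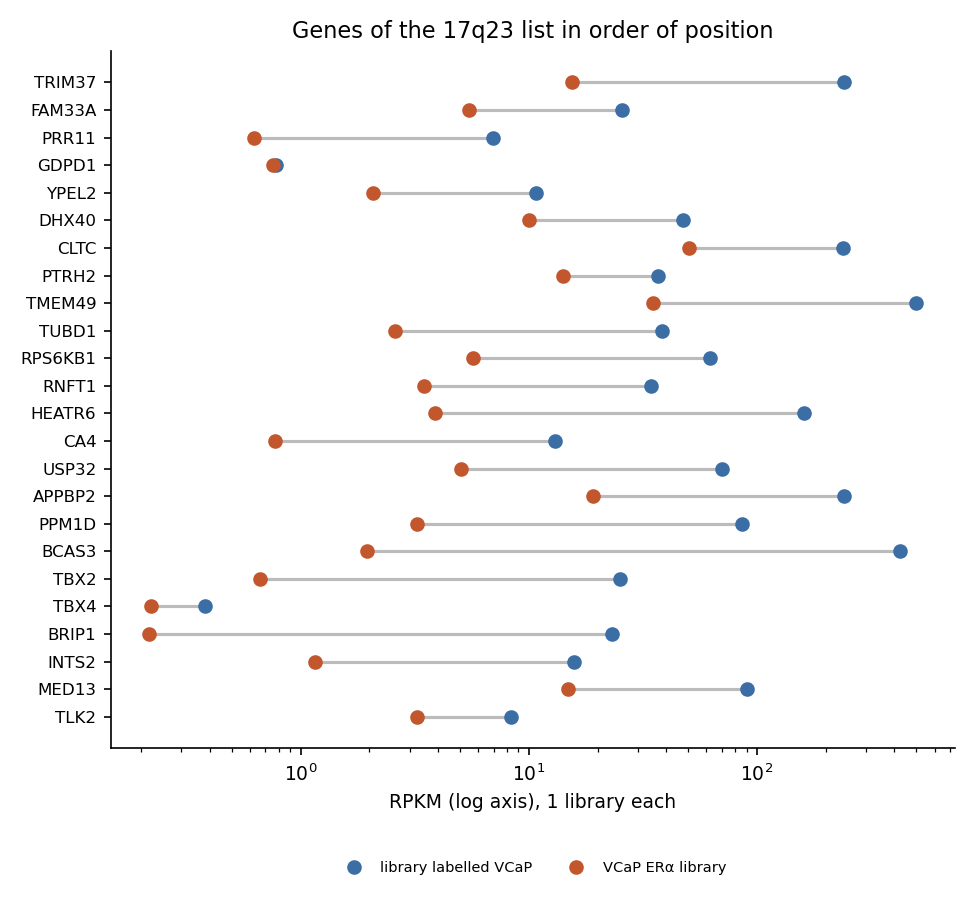
RPKM (horizontal log axis) of the 24 genes of the 17q23 list in the VCaP-labelled library (blue) and in VCaP ERα (orange), in order of position from TRIM37 to TLK2, with 1 library each. The blue point lies to the right for each of the 22 expressed genes; GDPD1 and TBX4 were under 1 RPKM in both, and BCAS3 is shown by its shorter entry.

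BCAS3 stood at the bottom of the stretch. Its long entry, 56109954 to 56824981, had 101.6 RPKM in the VCaP-labelled library and 1.38 RPKM in VCaP ERα, a centred log2 ratio of -4.84. A second entry of 24520 bp with the same end, from 56800462, had 425 and 1.94 RPKM, a ratio of -6.59, which was number 12 from the lowest of all expressed entries. The short entry was thus 4.18 times the long one in the first library and 1.40 times in the second; the entries overlap and share reads, so they are not separate measurements.

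Other genes of the list with high values lay at lower coordinates. TMEM49, which encodes the autophagy protein VMP1, had 500 and 34.9 RPKM, a centred log2 ratio of -3.21. TRIM37, an E3 ubiquitin ligase, had 241 and 15.5 RPKM (-3.28). The clathrin heavy chain gene CLTC had 238 and 50.1 RPKM (-1.64), the highest VCaP ERα value of the list. APPBP2, whose product binds the amyloid precursor protein, had 240.0 and 19.2 RPKM (-2.99). Of the 22 genes 6 reached 100 RPKM in the VCaP-labelled library.

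PPM1D had 86.1 RPKM in the VCaP-labelled library and 3.25 RPKM in VCaP ERα, a centred log2 ratio of -3.77. For RPS6KB1 the values were 62.4 and 5.68 RPKM (-2.66). TBX2, a T-box transcriptional repressor, had 25.2 and 0.665 RPKM (-3.38), while its neighbour TBX4 had 0.379 and 0.221 RPKM and was not expressed by the limit used.

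HEATR6 had 161 and 3.88 RPKM (-4.47), and the adjacent uncharacterised transcript AF086204 had 68.7 and 0.125 RPKM (-5.36). The deubiquitinase gene USP32 had 70.5 and 5.03 RPKM (-2.98). SCARNA20, a small Cajal body RNA inside the span of USP32, had 4.07 RPKM in the VCaP-labelled library and was listed at 0 in VCaP ERα. MED13, a subunit of the kinase module of Mediator, had 90.6 and 14.9 RPKM (-1.94).

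The smallest differences of the list were those of TLK2 and PTRH2. TLK2, a kinase that acts on histone chaperones, had 8.35 and 3.25 RPKM (-0.55), and PTRH2, a mitochondrial peptidyl-tRNA hydrolase, had 36.7 and 14.1 RPKM (-0.73). These were the 2 expressed genes of the list that did not pass -1.

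Among genes of the cell cycle and DNA repair, 8 of 14 expressed on the stretch had a centred log2 ratio below -1 and 1 above 1, with a median of -1.41. The counts of this and the following gene lists stand beside 36.2% below -1 and 19.1% above 1 in the whole stretch. Over all expressed entries these shares are 19.2% and 26.8%. No list was tested against the stretch, and the counts are not read as results about gene classes. BRIP1, a helicase that binds BRCA1, had 23.2 RPKM in the VCaP-labelled library and 0.217 RPKM in VCaP ERα (-3.72), and RAD51C, a recombination protein, had 24.7 and 3.84 RPKM (-1.82). KPNA2, a nuclear import receptor, had 43.7 and 6.41 RPKM (-2.0). Farther out, TK1, the cytosolic thymidine kinase, had 19.6 and 4.32 RPKM (-1.36), whereas BIRC5, which encodes survivin, had 4.403 and 4.92 RPKM (0.72). Genes of this list thus did not share 1 ratio. Several of its members, such as CDR2L, NOL11 and SPHK1, are not themselves genes of the cell cycle or DNA repair. CDK3, the gene above 1, had 5.75 and 9.55 RPKM (1.23), and its span overlaps that of LOC100134934.

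Kinase and growth signalling genes numbered 16 expressed, 8 below -1 and 2 above 1, with a median of -1.05. GRB2, the adaptor that links receptor tyrosine kinases to RAS, had 148 RPKM in the VCaP-labelled library and 15.6 RPKM in VCaP ERα (-2.58). GNA13, a heterotrimeric G protein alpha subunit, had 81.6 and 10.4 RPKM (-2.27), and RNF43, a ligase that removes Wnt receptors, had 20.5 and 1.48 RPKM (-2.53). The other members included PRKAR1A, the regulatory subunit of protein kinase A, with 94.9 and 33.5 RPKM (-0.89). The 2 genes above 1 lay inside the low stretch: MAP2K6, a kinase upstream of p38, had 0.527 and 5.59 RPKM (2.70), and PRKCA, protein kinase C alpha, had 1.40 and 4.26 RPKM (1.72).

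Epithelial adhesion and apical genes were spread over the stretch, and 10 of 16 were below -1 and 3 above 1, with a median of -1.74. ITGB4, the integrin of hemidesmosomes, had 75.02 RPKM in the VCaP-labelled library and 0.570 RPKM in VCaP ERα (-5.01). LLGL2, a cell polarity protein, had 44.9 and 1.87 RPKM (-3.41), and SLC9A3R1, an apical scaffold, had 143 and 13.5 RPKM (-2.72). ST6GALNAC2, a sialyltransferase, had 73.3 and 0.575 RPKM (-4.97), while the neighbouring ST6GALNAC1 had 9.48 and 4.63 RPKM (-0.31). LGALS3BP, a secreted galectin-binding protein, had 145 and 5.63 RPKM (-3.87), and TIMP2, a metalloproteinase inhibitor, had 32.5 and 1.79 RPKM (-3.0). ACTG1 had a ratio of -2.96; its near-identical paralogs could share its reads. On the other side were TOM1L1, an adaptor of endosomal sorting (12.1 and 20.8 RPKM, 1.32), BAIAP2, an adaptor of the actin cytoskeleton (5.03 and 7.69 RPKM, 1.12), and AATK, a kinase (0.233 and 1.82 RPKM, 1.79). Several members on either side, such as ST6GALNAC2, TIMP2 and AATK, are not themselves adhesion proteins.

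Of 12 expressed genes of splicing and RNA processing 5 were below -1 and 0 above 1, with a median of -0.89. SUPT4H1, an elongation factor subunit, had 116 RPKM in the VCaP-labelled library and 8.54 RPKM in VCaP ERα (-3.02). The RNA helicase gene DDX5 had 361 and 120 RPKM (-0.98), SFRS1 had 36.6 and 23.4 RPKM (-0.03), and SFRS2 had 52.2 and 50.2 RPKM (0.53). Both of the last encode SR splicing factors, and SFRS1 lies within the run from TRIM25 to MTMR4.

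Chromatin genes and transcription factors gave 7 of 15 expressed below -1 and 0 above 1, with a median of -0.81. The 15 include ICT1 (-0.20), which encodes a mitochondrial protein and is also counted in the list of mitochondrial proteins. SMARCD2, a subunit of the SWI/SNF complex, had 164 RPKM in the VCaP-labelled library and 7.14 RPKM in VCaP ERα (-3.75). H3F3B, a gene of histone H3.3 that shares sequence with H3F3A, had 469 and 97.9 RPKM (-1.66). The Polycomb genes CBX2 and CBX8 had 10.3 and 2.11 RPKM (-1.27) and 9.68 and 3.41 RPKM (-0.68). SOX9, which follows a gene-poor stretch, had 10.3 and 12.8 RPKM (0.88).

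Protein turnover genes, ribosomal RPL38 included, had 6 of 14 below -1 and 2 above 1, with a median of -0.83. The proteasome genes PSMD12 (30.0 and 6.62 RPKM) and PSMC5 (22.9 and 5.22 RPKM) had centred ratios of -1.44 and -1.35. Above 1 were SUMO2 (73.2 and 116 RPKM, 1.24) and RPL38 (55.4 and 77.6 RPKM, 1.07), both of which have near-copies elsewhere that may share reads. Without the centring neither passed 1, with 0.65 and 0.48. In the list of mitochondrial proteins 2 of 13 were below -1, 1 above 1 and 11 below 0, with a median of -0.73. Over all expressed entries these shares are 19.2%, 26.8% and 47.2%. The 2 genes of the list below -1 were CCDC44 (31.5 and 5.23 RPKM, -1.79), a translational activator of cytochrome oxidase, and MTMR4 (35.4 and 3.87 RPKM, -2.31). MTMR4 encodes an endosomal lipid phosphatase rather than a mitochondrial protein. MRPL12, a mitochondrial ribosomal protein, had 9.34 and 13.99 RPKM (1.13).

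Of 14 expressed genes of lipid and sugar metabolism 3 were below -1, 2 above 1 and 7 below 0, where 19.2%, 26.8% and 47.2% of all expressed entries are. The median was -0.03, and it was -0.62 without the centring and 0.06 after quantile normalization, so this list has no direction that holds across scalings. GALK1, galactokinase, had 41.5 RPKM in the VCaP-labelled library and 1.57 RPKM in VCaP ERα (-3.46). DCXR, a dicarbonyl and xylulose reductase, had 96.3 and 289 RPKM (2.17), and PYCR1, an enzyme of proline synthesis, had 12.4 and 26.7 RPKM (1.64). FASN, fatty acid synthase, had 58.7 and 45.7 RPKM (0.24).

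The entry furthest below 0 in segment 4 was CACNG4, a transmembrane regulator of calcium channels and AMPA receptors, with 109 RPKM in the VCaP-labelled library and 2.69 RPKM in VCaP ERα (-4.31). Its cluster neighbours were low in both: CACNG1 had 0.846 and 0.246 RPKM, and CACNG5 was listed at 0 and had 0.535 RPKM. In the same segment PITPNC1, a lipid transfer protein, had 15.4 and 0.163 RPKM (-3.23), and WIPI1, an autophagy protein, had 67.8 and 7.75 RPKM (-2.39). In segment 3 TANC2, a synaptic scaffold, had 40.9 and 1.15 RPKM (-3.69).

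Entries higher in VCaP ERα also lay inside the low stretch. KCNH6, a potassium channel, had 0.0261 RPKM in the VCaP-labelled library and 8.26 RPKM in VCaP ERα (3.76), between genes that were lower. PPM1E, a phosphatase of the same family as PPM1D, had 1.496 and 18.0 RPKM (3.52), although its span ends inside that of TRIM37, which went the other way. NACA2 had 109 and 443 RPKM (2.61), and its paralog NACA on chromosome 12, with which it could share reads, had 22.5 and 81.9 RPKM. LOC729617, a hypothetical protein within the span of BCAS3, had 53.1 and 214 RPKM (2.58). Not every entry of the low stretch was thus low.

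The other entries among the 10 with the highest centred ratios, DCXR included, lay outside the 3 low segments. SCARNA16, a small Cajal body RNA, was listed at 0 in the VCaP-labelled library and had 9.03 RPKM in VCaP ERα. RNF157, a ubiquitin ligase, had 0.670 and 5.26 RPKM (2.50). AK098403 had 0.127 and 2.38 RPKM (2.18), and AX746631 was listed at 0 and had 1.88 RPKM.

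Most of the 58 entries above 1 were weak. Of these, 41 had less than 1 RPKM in the VCaP-labelled library (70.7%, against 55.3% of all expressed entries above 1), 14 were listed at 0 there, and 39 had less than 3 RPKM in VCaP ERα. At least 10 RPKM in VCaP ERα was reached by 10 of them. Restricted to entries at 1 RPKM or more in both libraries, 17 of 223 were above 1 (7.62%, against 17.1% of all such entries) and 90 were below -1 (40.4%, against 19.02%). These 90 are part of the 110 entries below -1, and the matching share over all entries below -1 was not worked out. For the counts of 14, 39 and 10 above, no share over all entries was worked out either.

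The 120 entries that were not expressed held tissue-restricted families. All 4 growth hormone and placental lactogen genes found (GH1, GH2, CSH2 and CSHL1) were listed at 0 in the VCaP-labelled library and had at most 0.546 RPKM in VCaP ERα. Of the ABCA cluster of lipid transporters, ABCA5 had 6.73 and 1.67 RPKM (-0.94), and ABCA6, ABCA8, ABCA9 and ABCA10 were under 1 RPKM in both. Among 12 CD300 and other leukocyte genes the highest value was 1.26 RPKM, that of CD7 in VCaP ERα; CD7 and CD79B were the 2 that reached 1 RPKM. Of the 120 entries 70 were listed at 0 in the VCaP-labelled library (58.3%, against 65.3% of all 11978 such entries) and 14 in VCaP ERα (11.7%, against 29.4%).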

How the data were processed

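The authors deposited RPKM values, 1 per entry and library, with known-gene identifiers, symbols and hg18 coordinates. The submitters' processing notes name CASAVA 1.8. The counting step and any normalization between libraries are not given in the sources used here. Depth is unknown, so no interval or detection floor was computed, and whether counting used strand is not stated. The mouse libraries were not used here.

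A pseudocount of 1 was added before log2 ratios were taken, which understates changes of low entries, and ratios were centred on the median of entries at 1 RPKM or more in both libraries. An entry was named by a gene symbol among those the file gives. Of the 424 entries 145 overlap the span of another and may share reads. Where a listed gene has several entries, the one with the highest mean was taken. The members and the gene lists were chosen with earlier results of these data known. Genes were named as list members, as the 10 largest differences in each direction, or from runs and windows; CACNG1 and CACNG5 and genes named as overlapping, paralogous or adjacent were added after their values were seen. With 1 library per condition no test was possible; the alternatives tried are given in the closing section. The window and run steps were tested on simulated data. Computation was in Python 3.11.15 with pandas 2.3.3 and numpy 2.4.6, and plots were drawn with matplotlib 3.10.9. No sequences are shown, since no human reference was used here.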

Additional observations from a re-analysis of the deposited data

How the results depend on the processing

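The alternatives were a pseudocount of 0.1, other filters, no centring, quantile normalization, 1 entry per symbol or per group of overlapping spans, other window sizes and longer runs. The median centred log2 ratio of -0.51 became 0.19 with no filter, because entries near 0 in both libraries then sit at about 0.59, and -1.10 without the centring. The 110 entries below -1 numbered from 90 to 158 under the alternatives. The 58 above 1 became 17 when 1 RPKM was required in both libraries, 100 with no filter and 35 without the centring. With no filter those above 1 were 23.6% of the stretch and 24.2% of all entries, so the smaller share above 1 was not seen at that setting, while those below -1 were 25.9% and 10.4%. The lowest window, -2.85, was -3.44 without the centring and otherwise between -3.12 and -2.28. The 103 entries in lower runs became 58 with no filter and 64 for runs of 12 or more, and the 0 entries in higher runs became 39 with no filter and 8 after quantile normalization. No named entry with a centred log2 ratio beyond 1 or -1 changed sign under the other pseudocount, without the centring or after quantile normalization. The sizes were less stable. Of 103 named entries 28 moved by more than 0.58 with the other pseudocount, 15 after quantile normalization and all 103 without the centring. With the pseudocount of 0.1 KCNH6 went from 3.76 to 6.75 and BRIP1 from -3.72 to -5.50. No paired analysis was possible because each condition has 1 library. With no replicate spread, moves of up to 1.5 times in a count or 0.58 in a log2 value were not regarded as a change.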
